A study of Rattus norvegicus with 4 samples.

Results

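Genes of vesicle traffic were examined in visceral fat of control and obese rats, and none passed the test between the groups. They comprise the Rab GTPases, the SNARE proteins (syntaxins, VAMPs and SNAPs), the Vps sorting proteins, the Sec proteins, the coatomer and the adaptors AP-1, AP-2 and AP-3. Members were chosen by the first letters of their symbol in the platform annotation, with Snap25 left out. Where several probe sets measured a gene, the brightest on average stood for it. The symbols named 145 genes of 10411 on the array, and 137 were kept because at least 2 of the 4 arrays exceeded a signal of 20.8, the 20th percentile of all values. Cop was read as coatomer, so that genes of the COP9 signalosome were not members.

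Vesicles carry membrane and cargo between the organelles of a cell. Coat proteins (COPII at the endoplasmic reticulum, coatomer at the Golgi apparatus, adaptors with clathrin later on) shape the vesicle and pick its cargo. Rab GTPases, active when GTP is bound, mark each membrane and recruit tethers and motors, and SNARE proteins on vesicle and target zip together to fuse the membranes. In fat cells this machinery moves the insulin-responsive glucose transporter GLUT4 to the cell surface, secretes adipokines and takes up receptors, and some Rabs, such as Rab18, sit on lipid droplets.

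RNA of visceral adipose tissue was hybridised to 4 arrays with 1 colour each, 2 for control and 2 for obese rats. All animals were male Wistar rats aged 130 days, and the labels give neither the origin of the obesity nor any treatment, nor do they say that the arrays of a group came from different animals. The p-values therefore describe variation between these 4 samples, part of which may be technical. The number of arrays limits the precision of every value. An exact permutation test with 2 against 2 cannot give a p below 0.333, so none was run.

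The array medians were between 74.9 and 82.9, lowest on obese replicate 2. Fat cell markers were bright on every array: Fabp4, the fatty acid binding protein of fat cells, had signals from 2853.1 to 3679.8. Of 8 fat cell markers 7 were higher and 1 lower in the obese samples. The groups of 2 higher ones did not overlap, where the background was 15.6%. The summed signal of the 8 was 13602.9 and 12940.9 on the control arrays and 13454.2 and 16726.1 on the obese arrays. Myeloid and macrophage markers were lower in the obese samples for 15 of 15 genes, and 13 of them did not overlap. Their summed signal was 12197.5 and 15315.2 on the control arrays and 8644.8 and 8582.3 on the obese arrays. The summed signal of 8 lymphocyte markers was 1406.7 and 1028.3 on the control arrays and 666.3 and 549.3 on the obese arrays. Of these, Cd4 (569.1 and 540.8 against 303.2 and 270.1) and Cd37 (221.7 and 227.7 against 119.8 and 79.6) were high on both control arrays. The others were highest on control replicate 1, such as Cd3d (77.7 against 23.3 to 28.8) and Lck (307.7 against 120.5 to 150.9). Obese replicate 1 stood apart in markers of neighbouring tissue. The summed signal of 7 pancreas markers was 1889.9 there, against 212.2 to 914.6 on the other arrays, with the amylase gene Amy2a3 at 531.8 against 1.0 to 3.3. The pancreas markers Cpa1 (622.5 against 197.0) and Cela1 (207.8 against 166.2) were instead higher on control replicate 2 than on obese replicate 1. The sums of 6 mesothelial and epithelial markers (1648.5 against 295.4 to 785.2) and of 5 smooth muscle markers (3638.6 against 1405.2 to 1617.9) were also highest on that array. The part of these cells in the results was not tested. In bulk tissue, fewer cells of a type and less RNA per cell cannot be told apart.

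No vesicle traffic gene passed in limma when p-values were adjusted across 12929 probe sets, and the adjusted p of the members ran from 0.422 to 1.0. The background was the same: an adjusted p under 0.05 was reached by 0.0% of probe sets. At an unadjusted p under 0.05 there was 1 member of 137, Rab13, which is 0.73%, against a background of 8.3%, or 5.23% for the lower direction alone. A plain test without moderation also passed 0 members and put 8 under an unadjusted p of 0.05, where it put 885 of all 12929 probe sets. The median log2 difference, obese minus control, was -0.05 over the members and -0.04 over all tested probe sets. Of 137 members 53 were higher and 84 lower (38.7% higher). Of all tested probe sets 42.5% were higher and the rest lower, and counts of lower and higher genes below stand beside this share.

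Groups were called separate where both obese arrays lay on the same side of both control arrays. In 35 of 137 members (25.5%) both obese arrays lay below, where the background was 24.4%. In 17 of 137 (12.4%) both lay above, where the background was 15.6%. These shares are near the background. The split between directions followed the scaling: with each array centred on its median, 23 members lay below and 29 above, with 16.9% and 21.7% of all probe sets. With quantile normalization 34 lay below and 18 above (24.8% and 13.1%), with 20.6% and 18.7% of all probe sets. With cyclic loess 32 and 22 did (23.4% and 16.1%), with 19.9% and 19.3% of all probe sets. No member both lacked overlap and differed at least 2-fold, against a background of 1.14%.

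**Figure D1:**
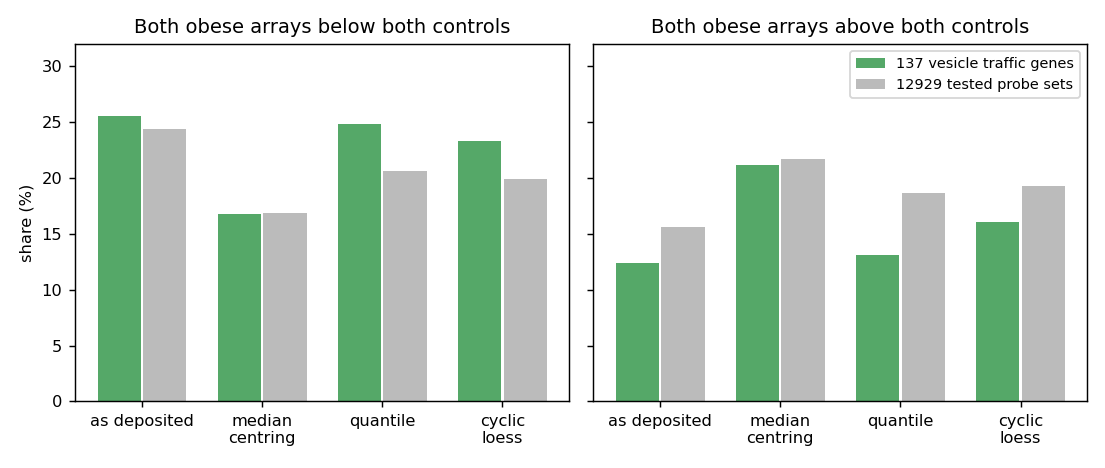
Share of features whose groups did not overlap (%), with both obese arrays below (left) or above (right) both control arrays, for the 137 members and the 12929 tested probe sets under 4 scalings. Median centring turned the balance of both sets, from 25.5% below and 12.4% above to 16.8% and 21.2% for the members.

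The differences were set beside the gaps between replicates. The median absolute log2 difference between group means was 0.13 in the members, a factor of 1.09, while 2 control arrays differed by a median of 0.16 and 2 obese arrays by 0.15. Over all tested probe sets these values were 0.16, 0.18 and 0.21. A mean of 2 arrays varies less than a single array. Without any difference between the groups, the first value would therefore be expected to lie below the replicate values. The difference stayed under 0.25 on the log2 scale in 114 of 137 members (83.2%), against 67.9% of all probe sets. It exceeded 0.5 in 3 members, Rab13, Rab4b and Rab26, which is 2.19%, against 8.71% of all probe sets. The members are the brightest probe set of each gene, while the background includes dimmer ones. The median moderated standard error was 0.16 in the members and 0.19 over all tested probe sets. The part of this in the smaller differences was not tested.

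The moderated standard errors give the precision of the differences between these samples. They hold the spread between these arrays, part of which may be technical, so they do not bound a difference between obese and control rats. Each interval was taken alone, without allowance for the number of members. The 95% interval of the limma difference lay inside a 2-fold change in either direction for 130 of 137 members, and inside 1.5-fold for 87. Over all tested probe sets, which include dimmer ones with larger standard errors, the shares were 86.2% and 38.3%. The intervals of the other 7 members reached 2-fold: Rab13, Rab4b, Rab26, Rab3ip, Sec16b, Ap1s3 and Vamp8. These 7 were singled out after their values were seen.

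**Figure D2:**
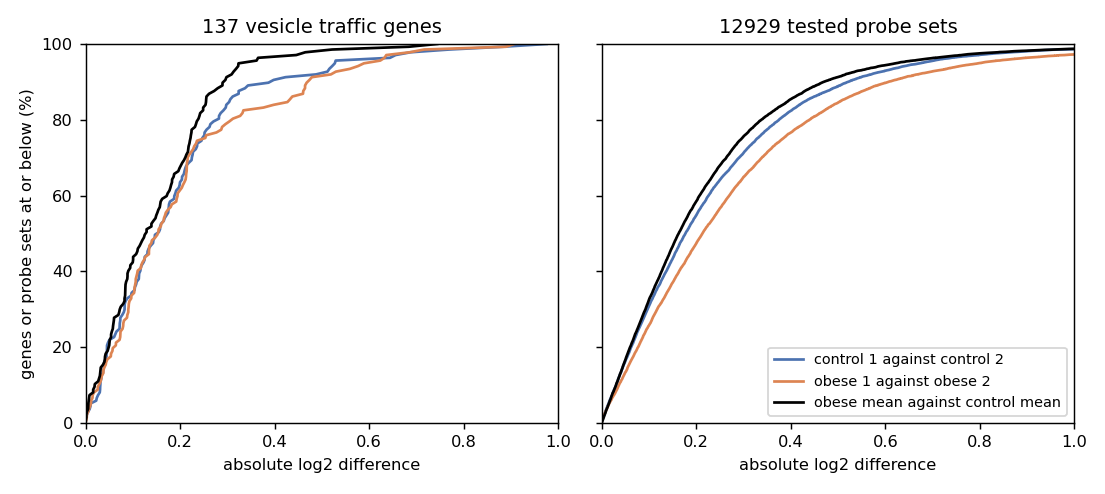
Cumulative share (%) of members (left) and of all tested probe sets (right) against the absolute log2 difference, drawn from 0 to 1, for both replicate pairs and for the group means. In the members the curve of the group means runs above or close to both replicate curves, with medians of 0.13, 0.16 and 0.15.

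Of the 44 Rab GTPases on the array, 41 were kept, and their median log2 difference was -0.05, with 26 lower and 15 higher. Groups did not overlap in 10 lower and 6 higher Rabs, where the background was 24.4% and 15.6%, and 0 passed the adjusted test. Rab13, known for traffic to tight junctions and for GLUT4 transport in muscle cells, had signals of 171.1 and 200.2 on the control arrays and of 105.0 and 116.3 on the obese arrays. Both obese values were below both control values by more than either replicate gap, at means of 110.7 ± 7.99 and 185.7 ± 20.6 (SD, n = 2). The log2 difference was -0.74 ± 0.16 (SE), control tissue being 1.67-fold brighter, with a limma adjusted p of 0.422 and an unadjusted p of 0.00408. It lay between -0.63 and -0.86 whichever array was left out, and between -0.66 and -0.74 under the other settings. Rab13 is measured by 1 probe set, so no other probe set bears on it.

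Rab26, a Rab of secretory granules, had signals of 38.1 and 26.4 in control and 22.7 and 21.5 in obese tissue. All 4 values are close to the floor of 20.8. Its log2 difference was -0.52 ± 0.24, but -0.33 with a pseudocount of 16 in place of the floor and from -0.26 to -0.79 with an array left out. Rab4b had signals of 93.1 and 54.6 in control and 56.3 and 35.0 in obese tissue. Its groups overlapped by the second control array, and its log2 difference was -0.68 ± 0.35. Without control replicate 2 it was -1.07, and without obese replicate 1 it was -1.03, the only member at least 2-fold apart in a comparison with an array left out. Its close relative Rab4a, a Rab of rapid recycling from early endosomes, had signals of 118.2 and 97.2 in control and 116.9 and 136.9 in obese tissue, a log2 difference of 0.24 ± 0.19.

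The Rabs with the smallest p on the higher side were Rab28, Rab2b and Rab18. Rab28 had signals of 569.7 and 587.9 in control and 647.2 and 713.4 in obese tissue, a log2 difference of 0.23 ± 0.12. The groups did not overlap, and the gap between them was close to the spread of the obese pair. Rab2b, a Golgi Rab, had signals of 212.9 and 232.2 in control and 269.5 and 253.6 in obese tissue, but the second probe set of this gene gave -0.07 against 0.23 for the first. Rab18, which coats lipid droplets and the endoplasmic reticulum, had signals of 667.1 and 589.4 in control and 707.5 and 753.7 in obese tissue. Its log2 difference was 0.22 ± 0.13 (limma adjusted p = 0.704), from 0.13 to 0.31 whichever array was left out.

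Endosomal Rabs named by rule were Rab5a, Rab7a and Rab11a, besides Rab4a given above. The log2 difference was 0.07 for Rab5a (early endosomes), whose second probe set gave -0.07, and 0.08 for Rab7a (late endosomes), without overlap of the groups. Rab11a (recycling endosomes) gave -0.04, and 0.04 with median centring. The 95% intervals were -0.27 to 0.41 for Rab5a, -0.21 to 0.38 for Rab7a and -0.34 to 0.26 for Rab11a, so none of the 3 reached 1.5-fold. Other endosomal Rabs did not share a direction, and all of them but Rab4a were named after their values were seen. Values were -0.29 for Rab22a with overlap, and -0.18 for Rab5c and -0.14 for Rab9a without. Rab5b gave -0.02 and Rab4a 0.24, both with overlap, and the probe sets of Rab11b gave -0.15 and 0.30. Rabs of regulated secretion differed in brightness. Rab3a, best known from synapses, was close to the floor and had signals of 27.5 and 27.7 in control and 32.2 and 28.7 in obese tissue. Rab27a differed by 0.29 ± 0.22 and Rab3d by -0.09 ± 0.17, both with overlapping groups. Rab3d, found in exocrine glands, did not follow the pancreas markers, with 127.6 on obese replicate 1 and 108.8 to 131.3 on the other arrays. Rab15, Rab39a and Rab3c were not kept, with at most 1 array above the floor.

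Of the 7 genes named after a Rab that encode no Rab themselves, mostly partners of Rabs, 6 were kept, 4 lower and 2 higher. Rab3il1, an exchange factor of Rab3 and Rab8 proteins, had signals of 81.9 and 97.8 in control and 74.5 and 65.1 in obese tissue, a log2 difference of -0.36 ± 0.20. Rab11fip5, an effector of Rab11, had signals of 259.2 and 241.1 in control and 207.0 and 222.3 in obese tissue, a log2 difference of -0.22 ± 0.13. These are the members of the group whose arrays did not overlap, 2 of 6 and both lower, where the background was 24.4%. Rab3gap2, a subunit of the Rab3 GTPase-activating complex, gave 0.14 with overlap.

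**Figure D3:**
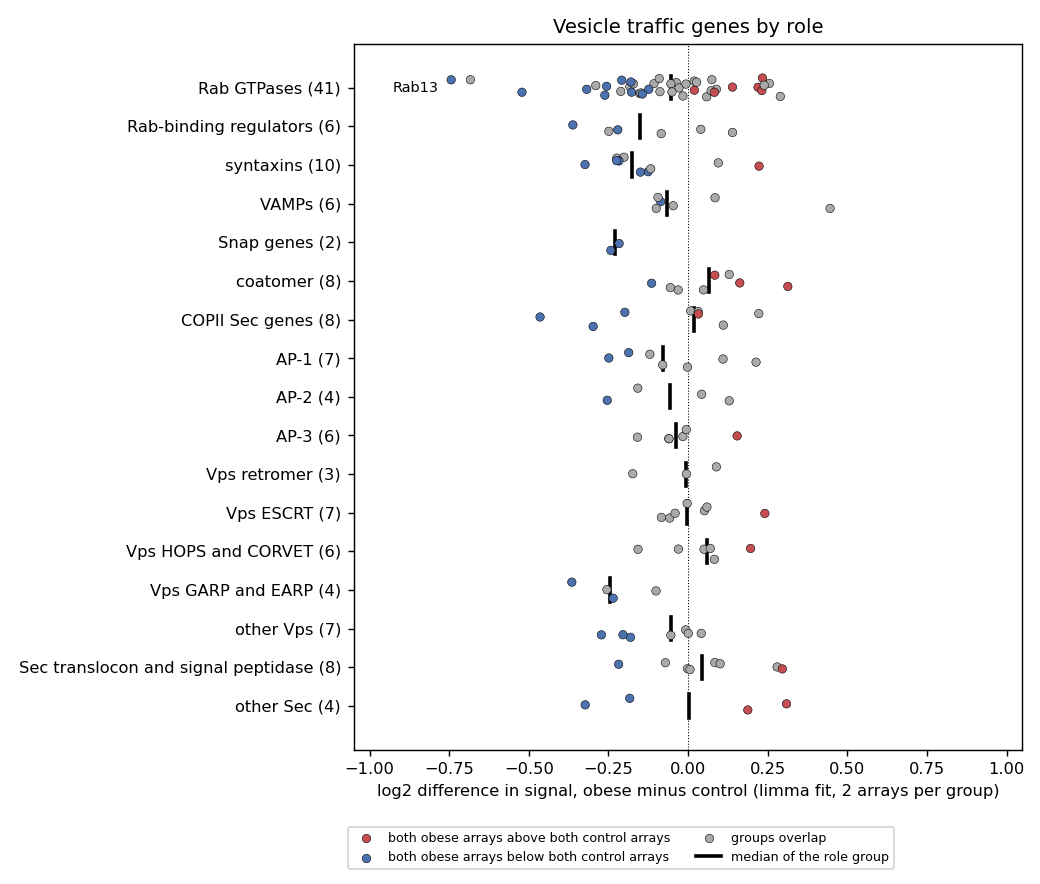
log2 difference in signal, obese minus control, of each of the 137 members by role, with the number of genes in parentheses, points coloured by whether the groups of 2 arrays overlapped and bars at role medians. All points but 3 lie within 0.5 of zero, and Rab13 at -0.74 lies farthest out.

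Syntaxins, VAMPs and SNAPs are the SNARE families among the members. The 10 syntaxins, target-membrane SNAREs, had a median log2 difference of -0.18, with 8 lower and 2 higher. Groups did not overlap in 5 lower syntaxins and 1 higher, where the background was 24.4% and 15.6%, and 0 passed the adjusted test. The median was -0.10 with median centring and between -0.11 and -0.27 with an array left out. Stx18, a SNARE of the endoplasmic reticulum, had signals of 198.4 and 172.2 in control and 142.2 and 153.4 in obese tissue, a log2 difference of -0.32 ± 0.15 (limma adjusted p = 0.637). Stx7, of late endosomes, had signals of 416.5 and 437.8 in control and 391.6 and 341.1 in obese tissue, a log2 difference of -0.22 ± 0.13. Stx8, which pairs with Stx7 in the same fusion complex, went the other way: signals of 123.7 and 108.3 in control and 133.1 and 137.1 in obese tissue, a log2 difference of 0.22 ± 0.16. Neither difference was much larger than the wider of its replicate gaps.

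Stx6 of the trans-Golgi network had signals of 237.6 and 244.1 in control and 217.3 and 216.9 in obese tissue, tight pairs that did not overlap. The log2 difference of Stx6 was -0.15 ± 0.13, and its second probe set gave -0.29. Snap29, a SNARE of autophagosome and lysosome fusion, had signals of 248.7 and 248.5 in control and 204.4 and 216.0 in obese tissue, a log2 difference of -0.24 ± 0.13. The other probe sets of Snap29, at signals of 21.9 to 41.5, gave 0.22 and 0.01. Snap91, the clathrin assembly protein AP180 of nerve endings, and Stx1a, the syntaxin of synapses, were not kept.

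The promoters of Snap29 and Stx6 are shown because both hold the core of the CLEAR element, the letters bound by TFEB, a regulator of lysosomal genes. The sequences are from RefSeq in the build GRCr8, 5′ to 3′ on the strand of the gene, with the core in capitals.

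Snap29, chr11:97113314-97113371, minus strand, core 151 bases before the start: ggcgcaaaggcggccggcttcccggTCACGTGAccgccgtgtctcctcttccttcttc

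Stx6, chr13:69882516-69882573, plus strand, core 106 bases before the start: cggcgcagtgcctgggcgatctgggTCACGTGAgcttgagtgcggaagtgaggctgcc

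The letters TCACGTGA, the same on both strands, were searched in the 250 bases before the start of each gene. Promoters were found for 123 of the 145 genes, and 6 of 125 promoters (4.8%) held the core, against 1.18% of the 9466 promoters of genes on the array and 0.657% of 33469 in the whole table. The other 4 genes were Vps11, Vps16, Vps26a and Vps33a, parts of endosome and lysosome sorting. Their log2 differences were 0.05, -0.03, -0.01 and 0.08, all with overlapping groups, while Snap29 (-0.24) and Stx6 (-0.15) were lower without overlap. Whether the core goes with a direction was not tested. The CRE letters TGACGTCA, also the same on both strands, were in 7 of 125 promoters (5.6%) and in 2.54% of those on the array. The ER stress element was found in 0 of 125 and in 0.19% of those on the array, on either strand. A match describes letters only.

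VAMPs are the SNAREs on the vesicle. Their 6 genes were all kept and had a median of -0.07, with 4 lower and 2 higher, and groups overlapped in 5. The background without overlap was 24.4% lower and 15.6% higher. Vamp8, known from secretory granules and late endosomes, had signals of 99.9 and 157.4 in control and 190.3 and 153.3 in obese tissue. It had the highest log2 difference of all members, 0.45 ± 0.26, but the groups overlapped, and it gave 0.12 without control replicate 1 and 0.77 without control replicate 2. Vamp1 gave -0.09 with the chosen probe set. Its dimmer probe sets gave -0.72, with signals of 63.5 and 60.6 in control and 40.1 and 35.4 in obese tissue, and -0.26 (limma adjusted p = 0.477 and 0.834). Vamp7 of lysosome fusion gave -0.10.

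Genes known for GLUT4 vesicles were compared as a group because that traffic is typical of fat cells. Vamp2, the main vesicle SNARE of GLUT4, had signals of 248.4 and 348.3 in control and 242.8 and 334.0 in obese tissue, so that the replicates of each group differed more than the groups. Its log2 difference was -0.05 ± 0.23, which leaves a 95% interval from -0.61 to 0.52. A second, dimmer probe set of Vamp2 had signals of 45.6 and 39.2 in control and 38.8 and 28.3 in obese tissue, a difference of -0.35 without overlap. Vamp3 gave 0.08 ± 0.17, Stx4, the SNARE of the cell surface, -0.12 ± 0.15, and its partner Snap23 -0.22 ± 0.13. Snap23 had signals of 229.6 and 253.5 in control and 211.5 and 203.8 in obese tissue, without overlap, and its second probe set gave -0.07. Rab8a and Rab10, Rabs released by insulin through the regulator Tbc1d4, gave -0.05 and 0.07. Their intervals were -0.37 to 0.27 and -0.26 to 0.41.

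Rab14, another Rab of the GLUT4 route, had signals of 440.4 and 580.3 in control and 469.4 and 422.5 in obese tissue, a log2 difference of -0.18 ± 0.17 with overlap. The other probe sets of Rab14 gave -0.22, -0.37 and -0.34, each without overlap, and all 4 were negative (limma adjusted p from 0.570 to 0.815). The cargo itself was measured too: GLUT4, Slc2a4, had signals of 91.5 and 75.0 in control and 115.9 and 141.1 in obese tissue, a log2 difference of 0.63 ± 0.20. Sortilin, Sort1, which sorts GLUT4 into its vesicles, had signals of 247.9 and 444.6 in control and 468.1 and 601.5 in obese tissue, a log2 difference of 0.68 ± 0.29. Neither passed the limma test (adjusted p = 0.522 and 0.621), though in both genes each obese array lay above each control array.

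**Figure D4:**
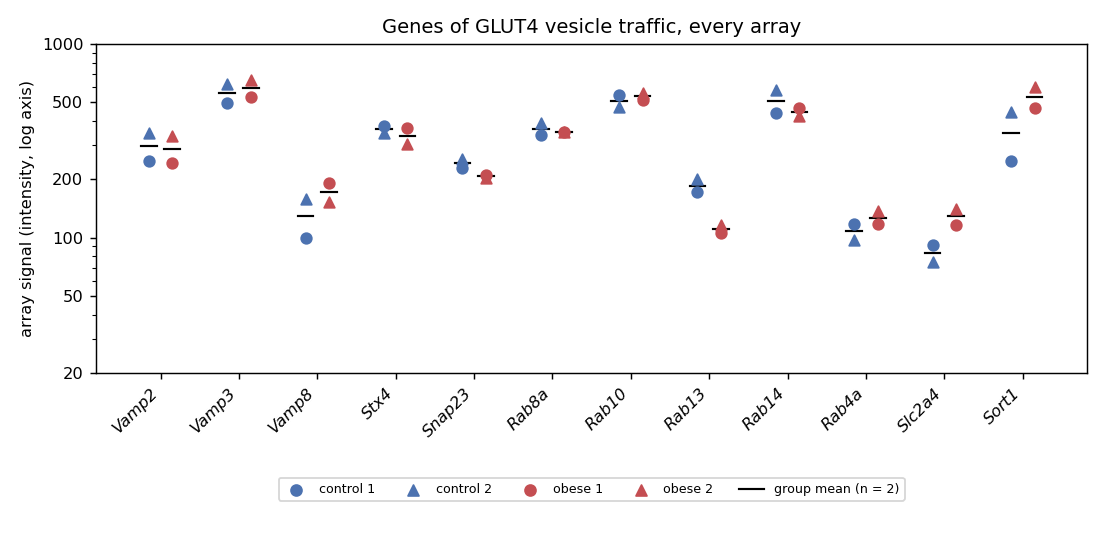
Array signal (intensity, log axis) of SNARE and Rab genes known from GLUT4 traffic and of the cargo genes Slc2a4 and Sort1, each point an array and each bar a group mean. Only Rab13 and Snap23 (lower) and Slc2a4 and Sort1 (higher) have groups that do not overlap.

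Among the coats, all 8 coatomer genes were kept, with a median of 0.07, 5 higher and 3 lower. Groups did not overlap in 3 higher and 1 lower, where the background was 15.6% and 24.4%, and 0 passed the adjusted test. Copz2, a zeta subunit, had signals of 154.7 and 118.3 in control and 172.9 and 163.4 in obese tissue, a log2 difference of 0.31 ± 0.18. Copg2 gave 0.16 ± 0.13 and its paralogue Copg1 -0.11 ± 0.12, both without overlap, and the second probe set of Copg1 gave 0.16. Copa, the large alpha subunit, was also without overlap, at 0.08. The subunits of this 1 complex therefore showed no common direction.

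The 8 COPII genes had a median of 0.02, with 3 lower and 1 higher without overlap, where the background was 24.4% and 15.6%. Sec24d, which selects cargo at the endoplasmic reticulum, had signals of 345.0 and 363.1 in control and 299.8 and 276.4 in obese tissue. Its obese values lay below the control values by more than either pair's spread, a log2 difference of -0.30 ± 0.13 (limma adjusted p = 0.615). It ranged from -0.24 to -0.36 with an array left out. Sec16b, a scaffold of exit sites, had signals of 89.6 and 79.3 in control and 74.9 and 49.8 in obese tissue, a log2 difference of -0.46 ± 0.25 that was -0.17 without obese replicate 2 and -0.76 without obese replicate 1. Sec31a of the outer coat gave -0.20 and -0.22 with its probe sets. Sec24b, a paralogue of Sec24d, gave 0.22 ± 0.20, with 146.8 on obese replicate 2 against 106.0 to 108.3 on the other arrays.

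Adaptors link cargo to clathrin. AP-2, which works at the cell surface, had a median of -0.06 over 4 genes. Its medium chain Ap2m1 had signals of 745.2 and 887.1 in control and 705.1 and 659.4 in obese tissue, a log2 difference of -0.25 ± 0.14, while the alpha chain Ap2a2 gave 0.13 ± 0.19, and -0.14 without obese replicate 2. AP-1, of the trans-Golgi network, had a median of -0.08 over 7 genes, with Ap1g1 at -0.25 and Ap1s1 at -0.19 without overlap. Its epithelial subunit Ap1m2 had signals of 40.1 and 31.6 in control and 50.4 and 33.8 in obese tissue, highest on obese replicate 1, the array with the highest epithelial markers. Without that array its log2 difference of 0.21 became -0.07. The epithelial Rab25, by contrast, had 39.8 there against 29.6 to 43.3 on the other arrays. AP-3, of lysosome-related organelles, had a median of -0.04 over 6 genes, with Ap3m2 at 0.15 without overlap and Ap3b1 at -0.16. Ap3b2, its nerve-type subunit, was not kept.

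Most Vps genes act in sorting to endosomes and lysosomes, and 27 were kept. The 4 genes of GARP and EARP, tethers for transport back to the Golgi apparatus and for recycling, were all lower, with a median of -0.25. Of all 12929 tested probe sets 7438 were lower. Groups did not overlap in 2 of the 4 genes, where the background was 24.4%. Vps52, shared by both complexes, had signals of 151.8 and 167.0 in control and 129.5 and 118.0 in obese tissue, without overlap. Its log2 difference was -0.37 ± 0.15 (limma adjusted p = 0.615), from -0.30 to -0.43 whichever array was left out. Another, dimmer probe set gave -0.13 with overlap. Vps54 gave -0.24 without overlap, and Vps50 and Vps53 gave -0.25 and -0.10 with overlap. The median of the group was -0.11 without obese replicate 2 and -0.38 without obese replicate 1.

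Retromer, which retrieves receptors from endosomes, had 3 genes with a median of -0.01: Vps35 at -0.17, Vps26a at -0.01 and Vps29 at 0.09, all with overlap. The 7 ESCRT genes, which sort cargo into multivesicular bodies, had a median below 0.01 in size. Of them Vps28, of ESCRT-I, had signals of 349.9 and 287.0 in control and 350.3 and 400.4 in obese tissue, where the lowest obese value and the highest control value nearly met. Its log2 difference was 0.24 ± 0.16, and Vps4b, an ATPase that disassembles ESCRT, gave -0.08. The 6 genes placed by their symbol with HOPS and CORVET, the tethers of late and early endosomes, had a median of 0.06. Vps41 of HOPS had signals of 401.3 and 410.7 in control and 433.1 and 499.6 in obese tissue, a log2 difference of 0.20 ± 0.13, and Vps33b gave -0.16 with overlap. Of the other Vps genes Vps9d1 gave -0.27 ± 0.16 and Vps45, a partner of syntaxins, 0.04 ± 0.23. Vps72, a chromatin protein despite its name, gave -0.20.

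The remaining Sec genes include those of protein entry into the endoplasmic reticulum. Sec63, a partner of the translocon through which new proteins enter, had signals of 262.1 and 264.1 in control and 329.1 and 317.0 in obese tissue. It had the smallest p of the members that were higher, with a log2 difference of 0.30 ± 0.12 (limma adjusted p = 0.609, unadjusted p = 0.0520). The second probe set of Sec63, however, gave -0.22, with signals of 205.0 and 209.9 in control and 178.6 and 177.2 in obese tissue, also without overlap but in the opposite direction, and their mean was 0.04. Sec61a1, the channel itself, gave -0.22 and -0.11 with its probe sets. Sec22a and the SNARE Sec22b gave 0.31 ± 0.17 and 0.19 ± 0.16, without overlap. Sec14l2, a lipid-binding protein, gave -0.32 and -0.37 with its probe sets, and Sec14l3 was not kept.

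**Figure D5:**
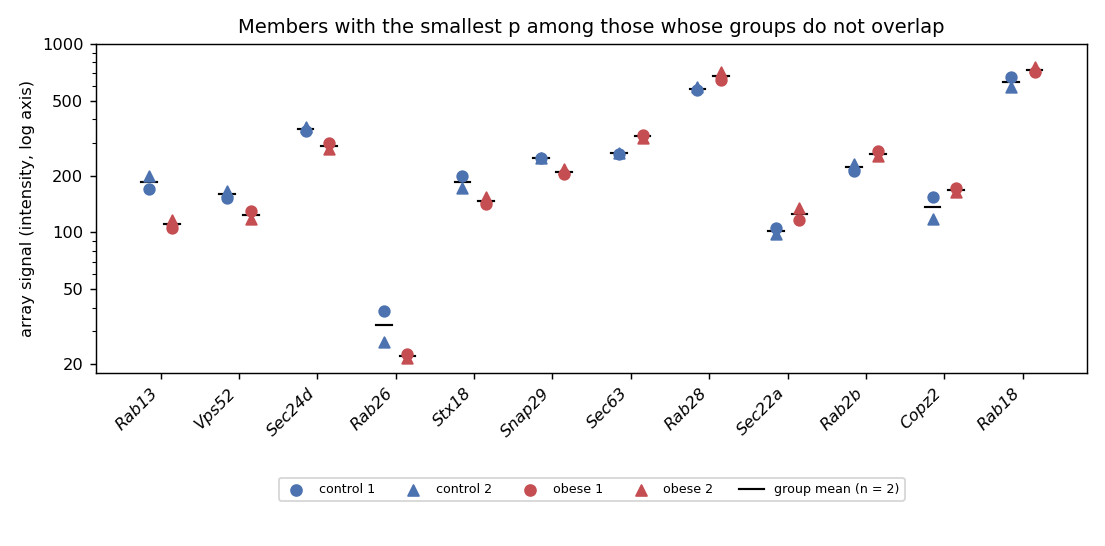
Array signal (intensity, log axis) of 12 members with non-overlapping groups, the 6 left genes lower and the 6 right genes higher in obese tissue, each point an array and each bar a group mean. On the log axis Rab13 has the widest gap, from at most 116.3 in obese to at least 171.1 in control tissue.

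Several probe sets measured 31 of the 137 genes, and they often disagreed in sign. Of 35 other tested probe sets, 22 had the sign of the chosen one and 13 the opposite, with a median gap of 0.14 on the log2 scale. This gap is as large as the typical difference between the groups. Paralogues such as Rab5a, Rab5b and Rab5c are alike in sequence, and whether a probe set also caught RNA of a paralogue was not tested.

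Other genes of the pathway, outside the naming rule, gave a like picture. Of 180 genes on 6 lists, 145 were tested and 0 passed the adjusted test. Without overlap, 36 (24.8%) were lower and 21 (14.5%) higher, where the background was 24.4% and 15.6%. At an unadjusted p under 0.05 there were 7 of the 145 in limma, 5 lower and 2 higher, where the background was 8.3%. The smallest p was that of Tbc1d14, a Rab regulator in autophagy, with signals of 205.4 and 230.7 in control and 137.9 and 131.2 in obese tissue. Tbc1d14 gave -0.69 ± 0.14 (limma adjusted p = 0.402). Gga2, an adaptor of the trans-Golgi network, gave -0.53, the lipid phosphatase Synj1 -0.57, Sh3gl1 -0.39, the sorting nexin Snx5 -0.40, and Tsg101 of ESCRT-I 0.41, besides Slc2a4. The 25 clathrin and endocytosis genes had a median of -0.11, with 8 lower and 1 higher without overlap. The 45 genes of transport between endoplasmic reticulum and Golgi apparatus had a median of 0.03, with 7 lower and 6 higher without overlap. The background for both lists was 24.4% lower and 15.6% higher. The 20 partners of SNAREs had a median of -0.05, the 17 genes of the Rab cycle -0.06, the 32 genes of exocyst, sorting nexins and ESCRT -0.02, and the 7 of GLUT4 vesicles 0.20.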

How the data were processed

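RNA of 4 rat adipose samples was measured on single-colour arrays, and the authors deposited 1 linear intensity per probe set and array. From the values, the deposited intensities had been scaled to a 2% trimmed mean of 150.026 to 150.03. The software and the method of normalization were not given in the sources used here. Of 15923 probe sets, 57 controls were left out, and 12783 of the rest carry 1 symbol. Values were used as deposited, raised to the floor of 20.8 and log2 transformed, and 12929 probe sets with at least 2 arrays above the floor entered limma 3.58.1 under R 4.3.3 (obese minus control, eBayes with trend, 5.83 degrees of freedom, Benjamini-Hochberg over all probe sets, threshold 0.05). Errors are moderated standard errors of log2 differences or SDs of signals. The code was tested on simulated data. Members and lists were chosen with earlier results of these data known, so no list was tested.

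Genes were named by rule: members without overlap and at least 2-fold apart (0 found), up to 12 members per direction with the smallest p among those without overlap, the extremes of t in each role group, and members known for GLUT4 traffic, endosomes, secretion or lipid droplets. Members outside this rule that are named with values, such as Rab4b, Rab25, Vamp1, Sec31a, Copa, Ap1s1, Vps26a, Vps50, Vps54 and Vps72, were chosen after their values were seen. The alternatives were other scalings, floors, filters, variance models, probe sets and readings of the rule, a replicate block, and each array left out.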

Additional observations from a re-analysis of the deposited data

How the results depend on the processing

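No member passed the adjusted test under any of the 19 alternatives. Over all probe sets the adjusted test passed 3 with the pseudocount, 6 without the filter on dim probe sets, 1 in eBayes without trend and 4 in the plain test. Members at an unadjusted p under 0.05 numbered 7 without the filter, 8 in the plain test, 6 without obese replicate 1 and 3 without control replicate 2, against 1. The same settings put 1159 of 15866, 885, 1665 and 519 of 12929 probe sets there, against 1073. The 24 genes named for the smallest p kept their sign under all alternatives. They were chosen for groups that do not overlap, so leaving out an array could not turn their sign. Changes of filter or variance model leave a difference as it is, so most of this stability was fixed in advance. The labels do not say whether the replicate numbers are a pairing. Deviations of same-numbered arrays correlated with r = 0.048, but with 2 arrays per group this is a single free value and cannot decide it. As a replicate block the numbers gave 2 members and 1103 probe sets at an unadjusted limma p under 0.05, against 1 and 1073. The block gave 0 adjusted calls, and the median of the members was -0.05.

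Median centring gave 29 members higher and 23 lower without overlap and a median of 0.029, with medians of 0.025 for Rab GTPases, -0.00055 for AP-1, 0.099 for COPII, 0.12 for the translocon, -0.15 for Snap genes, 0.14 for HOPS and CORVET, 0.074 for retromer, 0.15 for coatomer, 0.081 for other Sec, 0.025 for other Vps, 0.022 for AP-2, 0.041 for AP-3, 0.013 for VAMPs, 0.076 for ESCRT and -0.096 for syntaxins. Quantile normalization gave medians of -0.022 over the members, -0.027 for AP-1, -0.0015 for the translocon and 0.12 for HOPS and CORVET. Cyclic loess gave -0.022 over the members, -0.022 for AP-1, 0.13 for HOPS and CORVET and -0.0015 for other Vps. A floor at the 10th percentile gave -0.18 for other Sec, and one at the 40th percentile -0.12 for AP-1. The median of the members was -0.037 without the filter and -0.031 with COP9 genes counted. Averaging probe sets gave -0.074 for Snap genes. Leaving out the Rab-binding regulators, the translocon group, the Sec14l genes and Vps72 gave 0.25 for other Sec.

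With an array left out, 2 arrays are set against 1, so groups separate more often: 35 to 38 members were higher and 54 to 60 lower without overlap, and 0 to 1 were separated by 2-fold. Over all probe sets 27.0% to 32.1% were higher and 36.1% to 46.0% lower. The lone array was taken to vary like the others. Medians ran from -0.066 to -0.041 over the members, -0.13 to -0.061 for AP-1, -0.17 to 0.026 for AP-2, -0.090 to 0.054 for ESCRT, -0.091 to 0.058 for AP-3, -0.066 to 0.045 for COPII, -0.25 to 0.012 for Rab-binding regulators, -0.034 to 0.059 for the translocon, -0.27 to -0.19 for Snap genes, -0.074 to 0.085 for VAMPs, -0.38 to -0.11 for GARP and EARP, -0.019 to 0.11 for HOPS and CORVET, -0.066 to 0.068 for retromer, -0.011 to 0.14 for coatomer, -0.068 to 0.072 for other Sec, -0.21 to -0.035 for other Vps, -0.056 to -0.039 for Rab GTPases and -0.27 to -0.11 for syntaxins.

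Of the 56 genes named by rule, 17 changed sign with an array left out: Vamp3 (-0.077 to 0.25), Vamp7 (-0.21 to 0.014), Vps45 (-0.21 to 0.30), Vps4b (-0.20 to 0.034), Ap3b1 (-0.33 to 0.0098), Rab10 (-0.031 to 0.18), Rab14 (-0.38 to 0.016), Rab8a (-0.15 to 0.049), Vamp2 (-0.29 to 0.20), Vps53 (-0.25 to 0.051), Ap1m2 (-0.075 to 0.50), Vps29 (-0.013 to 0.19), Ap2a2 (-0.14 to 0.39), Rab11a (-0.090 to 0.016), Rab3d (-0.21 to 0.024), Sec24b (-0.010 to 0.45) and Stx4 (-0.26 to 0.027). Median centring turned Rab11a to 0.042, Rab8a to 0.029 and Vamp2 to 0.033, and averaging probe sets turned Copg1 to 0.024, Rab11a to 0.023 and Rab5a to -0.0012. The cause was not tested.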
